A study of Mus musculus with 22 samples.

Results

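Cultured dorsal root ganglion (DRG) neurons of wild-type (WT) mice were set against whole WT ganglia by RNA sequencing counts per gene. The libraries were chosen by their labels: 3 WT control cultures, kept 72 h in medium without recombinant periostin, and 3 WT vehicle ganglia, taken after 5 days of vehicle. These are 6 of the 22 libraries of a study of periostin, a secreted matrix protein, in a mouse model of psoriasis. The ganglia were thoracic and lumbar. The labels give no strain, age, sex, pooling, medium or plating, and nothing in them says that replicates are separate animals, so each p measures the spread between these samples, which may be technical. As the same contrast in other libraries, 3 control cultures (72 h) and 3 vehicle ganglia (5 days) labelled Postn knock out (KO) were fitted apart.

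A DRG holds the cell bodies of the sensory neurons that serve touch, itch, pain and body position. Satellite glia wrap the cell bodies, Schwann cells wrap and myelinate the axons, and fibroblasts, vessels and immune cells fill the space between. To culture the neurons the ganglion is cut out and dissociated, which severs every axon. Cutting a sensory axon is known to switch a neuron from its mature programme to a growth programme led by transcription factors such as Atf3, Jun and Sox11, and to turn myelinating Schwann cells into repair Schwann cells.

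The cultures held 18.3 to 23.3 M (mega) counts per library and the ganglia 17.3 to 20.0 M. Levels are counts per M (CPM) on library sizes scaled by the trimmed mean of M-values (TMM), and differences are log2 fold changes, culture minus ganglion, ± SE from the edgeR quasi-likelihood test. Cultures and ganglia came in separate count tables, so tissue and table cannot be told apart, and a gene was called only at an adjusted p (Benjamini-Hochberg over all genes tested) below 0.05 and a change of at least 4-fold, a log2 of 2. Of 17065 genes tested, 1286 were higher in the cultures (7.54%) and 1631 lower (9.56%). These shares are the background for every list count below. Some genes belong to more than 1 list and are counted in each. Cdkn1a, for example, is in the injury, p53 and glucocorticoid lists, and Lif in the injury, cytokine and neurotrophic lists. The median over all genes was a log2 of −0.01, and 61.3% of the genes lay within a log2 of 1 on either side. Genes just inside the limits had log2 values of 2.001 and −2.0, and genes just outside had 1.999 and −1.999.

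Some properties of the libraries moved with the groups or within them. In the ganglia, replicate 1 stood apart: the chi-square of its counts per degree of freedom, 1 being counting error alone, was 40.6 and 41.6 against the other two, which differed from each other by 3.34. The culture pairs had 2.49 to 8.01. Without ganglion replicate 1 the 2 counts of calls stayed within 1.5 times their values. Cultures 1 and 2 had 0.418 and 0.780 CPM of Xist, an RNA of female cells, and culture 3 had 1131 CPM, against 229 to 245 CPM in the ganglia, so the mix of sexes differs between the groups. The summed level of 4 Y-linked genes was 167, 175 and 0 CPM in the cultures and 0 CPM in all 3 ganglia. Mitochondrially encoded genes took 2.36 to 2.63% of culture counts and 3.33 to 3.40% of ganglion counts. The part of these properties in the results below was not tested. RNA here is from bulk samples, in which fewer cells of a type and less RNA per cell cannot be told apart.

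**Figure D1:**
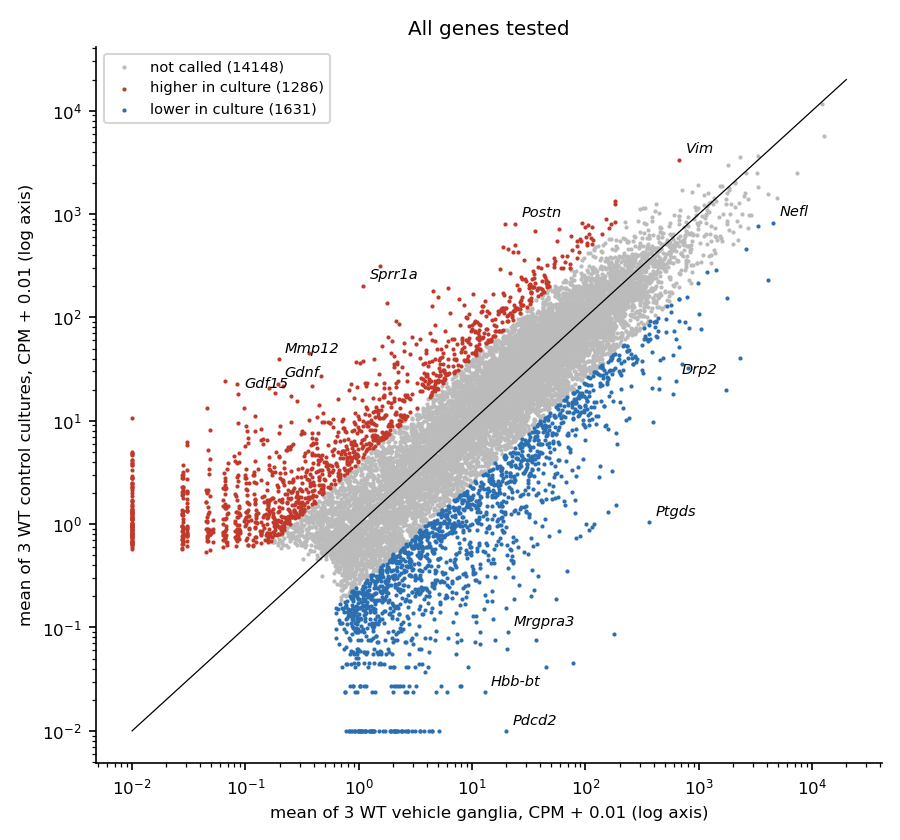
Mean of the 3 WT control cultures (vertical) against the mean of the 3 WT vehicle ganglia (horizontal), in CPM + 0.01 on log axes, 1 point per gene tested. Red points are the 1286 genes called higher in culture, blue points the 1631 called lower, and the line marks equal levels.

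The label calls the cultures neurons, and their neuronal identity was checked first with 24 pan-neuronal genes, all of them tested. Their summed level was 10232.5 to 10589.9 CPM in the cultures and 23058 to 26302 CPM in the ganglia. None was higher and 4 were lower, with a list median of −1.40 on the log2 scale. Neuronal tubulin Tubb3 stood at 1286, 1187 and 1247 CPM in the cultures, against 1692, 1649 and 1835 CPM in the ganglia, a log2 of −0.48 ± 0.09 that was not called. The growth cone genes were not called: Stmn2 had a log2 of −0.63 ± 0.10 and Gap43 one of 0.09 ± 0.13. The peripheral filament gene Prph (−0.31) and the dendritic microtubule gene Map2 (0.35) were likewise not called.

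The 4 pan-neuronal genes that fell were Nefl, Gng3, Elavl4 and Isl1. Nefl, the light neurofilament chain, had 853, 833 and 794 CPM in the cultures, against 4949, 4307 and 4361 CPM in the ganglia (−2.46 ± 0.10, edgeR adjusted p = 8.59e-08). Isl1, a LIM homeodomain factor that maintains sensory neurons, had 26.4, 24.2 and 28.4 CPM in the cultures, against 103, 106 and 108 CPM in the ganglia (−2.0 ± 0.09). For both genes the groups did not overlap. Isl1 and Elavl4 lay at the limit: scaled by total counts alone they were at −1.87 and −1.93 and were not called. Without culture replicate 1 or 2, or ganglion replicate 2 or 3, Isl1 was at −1.99, −1.93, −1.99 and −1.98, and without ganglion replicate 2 or 3 Elavl4 was at −1.96. Exons of Nefl and Gng3 lie in part under exons of the opposite strand, 32.8% and 24.2% of their bases, a property described further below. Among the 18 pan-neuronal genes without such overlap or shared sequence, 2 were lower.

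The cultures also held RNA of other cells. Collagen, glial and vascular markers were present in every culture library. The summed fibroblast and matrix list was at 6318 to 7385 CPM in the cultures and 4722 to 5919 CPM in the ganglia. Its largest members in culture were Sparc and Postn, with 115653 and 49905 counts. It also holds Thy1 (31314 counts), which the pan-neuronal list holds too. Of its 31 genes 18 had a log2 above 0 and 13 below, so the sum does not stand for every fibroblast gene. The repair Schwann list was at 3222 to 3616 CPM in the cultures and 1534 to 1965 CPM in the ganglia. Other glial lists summed to less in the cultures. The myelinating Schwann list was at 3057 to 3899 CPM in the cultures and 11465 to 17689 CPM in the ganglia. For satellite glia the sums were 2878 to 3247 CPM in the cultures and 5480 to 6593 CPM in the ganglia. By these markers the cultures held other cells beside neurons, and the pan-neuronal list summed to less in every culture than in any ganglion.

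Lists of sensory neuron subtypes had lower medians than the pan-neuronal list, but their summed levels fell by a smaller share. Mean sums were 10440 CPM in the cultures and 24560 CPM in the ganglia for pan-neuronal genes. For peptidergic genes they were 1287 and 2851 CPM, and for non-peptidergic and itch genes 1337 and 2320 CPM. For touch and position genes they were 1421 and 2124 CPM, and for thermoreceptor genes 94.9 and 128 CPM, with overlapping libraries in the last. Of 20 genes of non-peptidergic nociceptors and itch neurons, 14 were lower and none higher, against 9.56% lower among all genes, with a median of −3.69. Mrgpra3, the chloroquine receptor of itch neurons, had 0, 0.156 and 0.0824 CPM in the cultures, against 23.6, 17.7 and 20.5 CPM in the ganglia (−7.90 ± 0.34, edgeR adjusted p = 1.28e-07). Mrgprd, a receptor of skin-surface nociceptors, had 1.52, 0.676 and 0.412 CPM in the cultures, against 64.4, 123 and 132 CPM in the ganglia (−6.98 ± 0.42). Both receptors were near 0 in all 3 cultures and clearly present in all 3 ganglia. Lpar3, a lysophosphatidic acid receptor, had 1.88, 1.51 and 1.69 CPM in the cultures, against 73.2, 84.4 and 83.9 CPM in the ganglia (−5.57 ± 0.13).

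The itch neuropeptides and cytokine receptors of this list moved the same way in part. Somatostatin (Sst), natriuretic peptide B (Nppb) and the interleukin-31 receptor Il31ra fell, with log2 values of −6.02, −3.76 and −4.36. Its co-receptor Osmr did not change by 4-fold, at 0.05 ± 0.09. The ATP-gated channel P2rx3, the histamine receptor Hrh1 and the GDNF receptor subunits Ret and Gfra1 were also not called, with log2 values of 0.77, 0.08, −0.74 and 0.43. Gfra2, the neurturin co-receptor, was lower, with 14.8, 16.5 and 15.5 CPM in the cultures, against 159.5, 165 and 197 CPM in the ganglia (−3.47 ± 0.12).

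Peptidergic nociceptor genes showed 7 of 14 lower and none higher, with a median of −1.85. The capsaicin receptor Trpv1 had 27.3, 28.1 and 20.8 CPM in the cultures, against 149, 157 and 164 CPM in the ganglia (−2.63 ± 0.13, edgeR adjusted p = 2.20e-07). Trpa1, the mustard oil receptor, had 12.2, 14.2 and 12.2 CPM in the cultures, against 95.3, 102 and 109 CPM in the ganglia (−2.99 ± 0.11), and the substance P precursor Tac1 had 31.1, 31.6 and 29.8 CPM in the cultures, against 381, 275 and 289 CPM in the ganglia (−3.35 ± 0.14). For all 3 genes the highest culture lay below the lowest ganglion. Calca, which encodes CGRP, and the peptide precursor Adcyap1 were not called, at −1.24 ± 0.14 and 1.08 ± 0.10.

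Touch and position neurons gave 9 of 17 genes lower and none higher, with a median of −2.10. Th, the tyrosine hydroxylase of C-fibre touch neurons, had 10.8, 11 and 11.8 CPM in the cultures, against 93.9, 84.3 and 80.2 CPM in the ganglia (−2.95 ± 0.10). Pvalb, the calcium buffer of proprioceptors, fell by 2.69 on the log2 scale, and the mechanosensitive channel Piezo2 lay just short of the limit at −1.97 ± 0.11. The neurotrophin receptors Ntrk2 (−0.05) and Ntrk3 (−1.37) were not called. Of 6 thermoreceptor genes 3 were lower, among them the menthol receptor Trpm8, with 1.67, 1.77 and 2.39 CPM in the cultures, against 6.33, 25.4 and 25.3 CPM in the ganglia (−3.28 ± 0.49).

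Ion channels that set excitability were lower in 10 of 27 cases and higher in none. Scn11a, the Nav1.9 channel of nociceptors, had 32.4, 35.8 and 29.2 CPM in the cultures, against 751, 787 and 892 CPM in the ganglia (−4.64 ± 0.13, edgeR adjusted p = 1.95e-08). Scn10a, the Nav1.8 channel, had 209, 215.5 and 222.5 CPM in the cultures, against 829, 968 and 1125 CPM in the ganglia (−2.17 ± 0.12). In both genes the ganglion libraries were several times above every culture. The axonal potassium channel gene Kcna2 had 67.3, 64.3 and 65.8 CPM in the cultures, against 416, 432 and 415 CPM in the ganglia (−2.68 ± 0.09), and the sodium channel subunit gene Scn3b was lower, at −2.02. Scn3b was at the limit, and lost its call in alternatives such as leaving out culture replicate 3 (−1.93) or ganglion replicate 2 (−1.94). The sodium channel Scn9a (Nav1.7) was at −1.66 ± 0.12, and the pacemaker channel Hcn2 at 0.35, neither of them called.

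A list of purinergic and itch receptors had 8 of 25 tested genes lower and 1 higher. It includes receptors for ATP, serotonin, prostaglandins and histamine, and Hrh1 is also in the non-peptidergic list. The list median was −0.93, and −0.40 over the 21 genes without overlap or shared sequence. The purinergic receptor P2ry1, with 23.1% of its exon bases under the opposite strand and 21.4% of its 75-base words shared, had 7.69, 7.91 and 8.86 CPM in the cultures, against 68, 85.1 and 77 CPM in the ganglia (−3.23 ± 0.12). The serotonin-gated channel Htr3a had 30.9, 27.3 and 31 CPM in the cultures, against 129, 115 and 114 CPM in the ganglia (−2.0 ± 0.10). Htr3a was at the limit, and lost its call in alternatives such as leaving out culture replicate 2 (−1.94) or ganglion replicate 1 (−1.95). P2rx7, the ATP-gated channel best known from microglia and macrophages, was the gene that rose, with 159, 154 and 129.8 CPM in the cultures, against 35.6, 31.3 and 27.4 CPM in the ganglia (2.23 ± 0.12). Sensory transcription factors had 6 of 21 tested genes lower and none higher. Prdm12, a regulator required for nociceptors, had 29.2, 24.9 and 23.7 CPM in the cultures, against 115.5, 146 and 169 CPM in the ganglia (−2.47 ± 0.15), and Isl2 fell by 2.62 on the log2 scale.

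Genes of the synaptic vesicle and of release changed little beside these. Of 24, only Sv2b was called, with 55.3, 53.3 and 54.7 CPM in the cultures, against 173, 244 and 244 CPM in the ganglia (−2.02 ± 0.14). Its call was lost in alternatives such as leaving out culture replicate 2 (−1.99), ganglion replicate 2 (−1.93) or ganglion replicate 3 (−1.93). None was higher, and the list median was −0.94. The neuropeptide precursor Vgf was at 1.95 ± 0.18, just under the upper limit, and the vesicular glutamate transporter Slc17a6 at 0.13 ± 0.10.

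Genes known from nerve injury had a list median of 2.91, at the top of the 40 lists beside the cytokine list, which stood above it in some alternatives, such as without ganglion replicate 1 (2.85 for injury and 3.12 for cytokine genes). Of its 30 members 26 were tested, 20 were higher and none was lower, against 7.54% higher among all genes. Atf3, the stress-induced factor that marks axotomised neurons, had 468, 421 and 478 CPM in the cultures, against 16.5, 24.4 and 20.8 CPM in the ganglia (4.46 ± 0.16, edgeR adjusted p = 5.01e-08). Sprr1a, a cornified-envelope protein that injured neurons make, had 214, 202 and 191 CPM in the cultures, against 0.559, 1.97 and 0.73 CPM in the ganglia (7.52 ± 0.28). In each, the lowest culture was over 10 times the highest ganglion.

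Secreted factors and receptors of the list followed. Csf1, the macrophage growth factor that injured sensory neurons release, had 269, 263 and 273 CPM in the cultures, against 21.1, 22.4 and 21.6 CPM in the ganglia (3.63 ± 0.09). The neuropeptides galanin (Gal) and neuropeptide Y (Npy) rose by 2.31 and 3.81 on the log2 scale, with Gal at 138, 125 and 85.3 CPM in the cultures, against 32.6, 19.6 and 18.2 CPM in the ganglia. Cckbr, the cholecystokinin B receptor, had 22.1, 20.1 and 22.6 CPM in the cultures, against 0.0621, 0.6 and 0.469 CPM in the ganglia (5.77 ± 0.31), and the endopeptidase-like gene Ecel1 had 131.5, 131 and 149 CPM in the cultures, against 1.18, 2.18 and 1.88 CPM in the ganglia (6.28 ± 0.17). The receptor Tnfrsf12a and the heparan sulphate carrier Sdc1 rose by 5.00 and 3.09. The transcription factor Sox11 rose by 2.95, while Jun itself was just short of the limit at 1.96 ± 0.15, Klf6 was at 1.56, the small heat-shock gene Hspb1 at 1.02, Nts at 1.70 and Rrad at 0.81. For low counts 4 members were not tested: Vip, Anxa10, Il24 and Arg1.

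**Figure D2:**
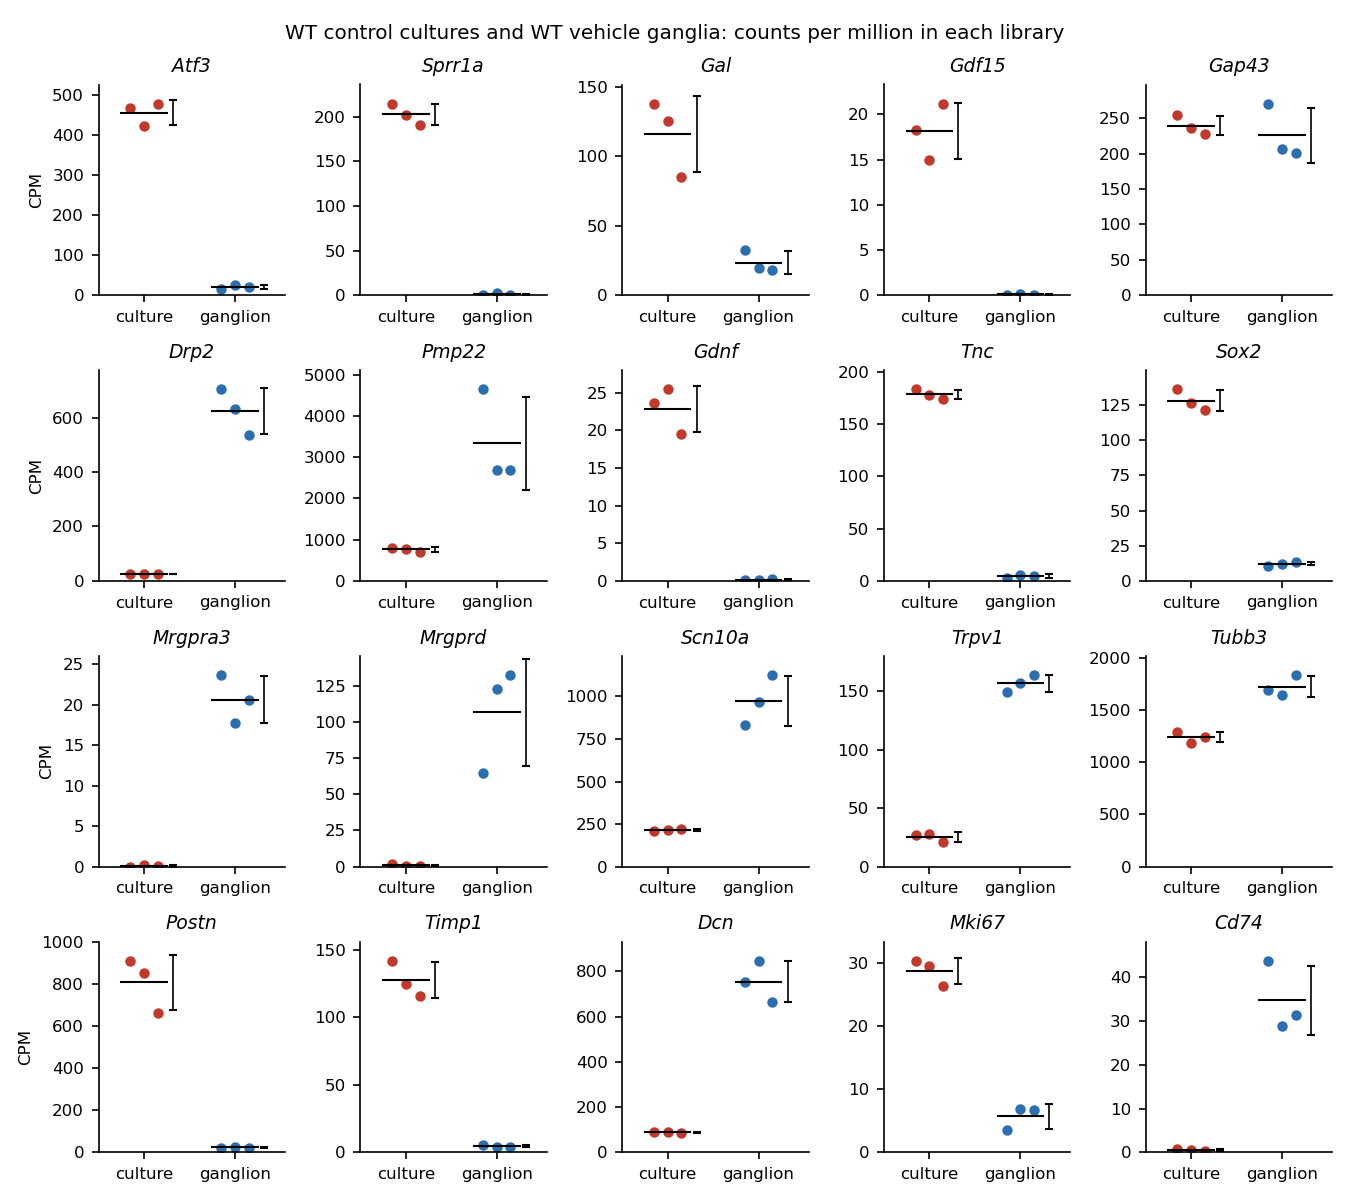
CPM of 20 genes in each of the 3 WT control cultures (red, left) and the 3 WT vehicle ganglia (blue, right), with the mean as a black line and the SD as the bar beside it. Atf3 and Sprr1a lie high in the cultures and near the axis in the ganglia, Mrgpra3, Mrgprd and Cd74 the reverse, and the groups overlap for Gap43.

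Immediate early genes had 10 of 21 tested members higher. Fosl2, a subunit of the AP-1 transcription factor, had 123, 128 and 116 CPM in the cultures, against 16.7, 21.1 and 21.9 CPM in the ganglia (2.62 ± 0.12). Junb, another subunit, had 79.6, 81 and 70.8 CPM in the cultures, against 12.7, 13.1 and 14.8 CPM in the ganglia (2.51 ± 0.11). Fos rose by 3.14 on the log2 scale and Fosl1 by 3.90. The phosphatase gene Dusp1 and the proto-oncogene Myc rose by 2.47 and 2.07. Npas4, which neuronal activity induces, was at −0.04 ± 0.34 and Nr4a1 at 0.48 ± 0.10, neither of them called. Jund, a subunit of AP-1, was the member that fell (−2.34 ± 0.15), and it is among the genes with opposite-strand overlap or shared sequence.

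Stress-response genes rose in part. Of 22 genes of the integrated stress and unfolded protein responses, 5 were higher and none lower, with a median of 1.43. Sesn2, an inhibitor of mTORC1 signalling, had 59.4, 58 and 62.6 CPM in the cultures, against 4.72, 3.66 and 4.74 CPM in the ganglia (3.78 ± 0.12), and Chac1, which degrades glutathione, had 46.1, 46.8 and 56 CPM in the cultures, against 4.47, 5.18 and 5.11 CPM in the ganglia (3.33 ± 0.13). The cystine transporter Slc7a11 and the pseudokinase Trib3 rose by 3.61 and 2.95 on the log2 scale, while the chaperones Hspa5 (1.78) and Hsp90b1 (0.34) were not called. Of 16 p53 target genes 6 were higher and none lower. Gdf15, a stress cytokine, had 18.3, 15 and 21.2 CPM in the cultures, against 0.0621, 0.164 and 0 CPM in the ganglia (7.81 ± 0.38), and Eda2r, a receptor of the tumour necrosis factor family, had 27.8, 26.1 and 27.3 CPM in the cultures, against 0.434, 0.71 and 0.208 CPM in the ganglia (5.90 ± 0.24). The cell cycle inhibitor Cdkn1a had 510.0, 491.5 and 512 CPM in the cultures, against 113, 94.4 and 102 CPM in the ganglia (2.29 ± 0.10), and Mdm2 (1.84) and Bax (1.13) were not called.

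Promoters of some of these genes carry the letters bound by the factors just described. AP-1 binds TGANTCA, and the heterodimers of C/EBP and ATF proteins that act in the integrated stress response bind TGATGNAA. Both strands were searched in windows from 250 bases before to 50 after each start site, credited to RefSeq on GRCm38.p6, a build other than the GRCm39 that the submitters name. The AP-1 letters were in 8.97% of the 27025 genes with a promoter sequence and in 6.68% of the 12311 of these that were tested. They were in 12.6% of the 803 that were higher and in 7.04% of the 1023 that were lower. The C/EBP-ATF letters were in 4.51% of all and 2.80% of those tested, in 3.86% of those higher and in 2.64% of those lower. The 6 promoters below belong to called genes of the injury, protease and stress lists, and capitals mark the letters found.
Sprr1a promoter, AP-1 (chr3:92485832-92486131, minus strand): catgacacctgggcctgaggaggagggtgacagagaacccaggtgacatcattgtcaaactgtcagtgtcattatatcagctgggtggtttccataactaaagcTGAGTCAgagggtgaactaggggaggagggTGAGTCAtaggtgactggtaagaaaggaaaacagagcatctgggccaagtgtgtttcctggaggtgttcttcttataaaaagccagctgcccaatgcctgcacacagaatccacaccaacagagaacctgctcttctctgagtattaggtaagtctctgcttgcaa
Mmp3 promoter, AP-1 (chr9:7445572-7445871, plus strand): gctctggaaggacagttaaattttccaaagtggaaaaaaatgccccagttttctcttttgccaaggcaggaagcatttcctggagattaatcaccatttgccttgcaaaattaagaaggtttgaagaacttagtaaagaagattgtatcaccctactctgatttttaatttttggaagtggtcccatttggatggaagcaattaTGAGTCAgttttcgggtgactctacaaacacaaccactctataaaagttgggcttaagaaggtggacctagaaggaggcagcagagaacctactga
Mmp12 promoter, AP-1 (chr9:7347124-7347423, plus strand): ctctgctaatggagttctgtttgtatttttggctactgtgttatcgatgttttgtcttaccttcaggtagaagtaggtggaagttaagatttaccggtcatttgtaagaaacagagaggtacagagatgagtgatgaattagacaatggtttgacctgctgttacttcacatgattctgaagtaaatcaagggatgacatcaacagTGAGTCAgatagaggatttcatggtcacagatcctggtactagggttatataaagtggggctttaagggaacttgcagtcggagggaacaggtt
Plaur promoter, AP-1 (chr7:24462233-24462532, plus strand): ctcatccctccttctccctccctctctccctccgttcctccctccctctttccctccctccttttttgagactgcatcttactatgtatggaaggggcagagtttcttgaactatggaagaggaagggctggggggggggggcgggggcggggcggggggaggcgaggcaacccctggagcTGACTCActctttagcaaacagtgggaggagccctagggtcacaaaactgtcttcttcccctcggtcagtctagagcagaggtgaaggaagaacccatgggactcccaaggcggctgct
Atf3 promoter, C/EBP-ATF (chr1:191183284-191183583, minus strand): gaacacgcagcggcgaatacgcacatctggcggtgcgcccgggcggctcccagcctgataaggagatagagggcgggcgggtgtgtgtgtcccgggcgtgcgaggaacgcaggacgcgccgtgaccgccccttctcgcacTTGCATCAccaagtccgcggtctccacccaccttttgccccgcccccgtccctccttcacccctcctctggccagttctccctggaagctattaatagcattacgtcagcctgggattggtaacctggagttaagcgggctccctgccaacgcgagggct
Chac1 promoter, C/EBP-ATF (chr2:119350992-119351291, plus strand): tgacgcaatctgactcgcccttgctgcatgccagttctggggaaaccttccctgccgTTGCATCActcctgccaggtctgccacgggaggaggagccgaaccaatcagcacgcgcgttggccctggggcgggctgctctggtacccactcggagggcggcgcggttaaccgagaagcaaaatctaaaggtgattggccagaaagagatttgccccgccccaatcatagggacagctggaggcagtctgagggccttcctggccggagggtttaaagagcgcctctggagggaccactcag

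The Sprr1a window holds TGAGTCA at 2 places, starting 146 and 116 bases before the start site. The matches of the neighbouring metalloprotease genes Mmp3 and Mmp12 begin 46 and 44 bases before theirs, and that of Plaur 69 bases before. In the Atf3 and Chac1 windows the letters are on the opposite strand, beginning 110 and 193 bases before the start site. In the lists, AP-1 letters were in 5 of 14 protease genes with a promoter sequence (Mmp3, Mmp10, Mmp12, Mmp13, Plaur), in 8 of 23 cytokine genes and in 4 of 22 injury genes. Shares did not follow the direction of the lists: the letters were in none of 24 cell cycle, none of 16 immediate early and 1 of 13 repair Schwann cell genes, but in 4 of 14 touch and position genes and 6 of 20 interferon genes. Mmp13 was not called (0.33 ± 0.48) and Mmp10 was not tested. A match says only that these letters are in the window.

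Schwann cell genes divided by stage. Of 19 tested genes of myelinating Schwann cells 12 were lower, 1 was higher and the median was −2.31. Drp2, a part of the dystroglycan complex on the Schwann cell surface, had 25.1, 24.1 and 24.1 CPM in the cultures, against 703, 630.2 and 537 CPM in the ganglia (−4.67 ± 0.13, edgeR adjusted p = 1.95e-08), and Pmp22 had 807.5, 782 and 697 CPM in the cultures, against 4641, 2689 and 2678 CPM in the ganglia (−2.13 ± 0.21). Ganglion replicate 1 was the highest ganglion for both, and every ganglion lay above every culture.

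Other myelin genes differed among themselves. Fa2h, which makes the hydroxylated lipids of myelin, and the myelin-associated glycoprotein gene Mag fell, at −6.01 and −5.34. Myelin basic protein (Mbp) lay at −1.89 ± 0.21 and the gap junction gene Gjb1 at 0.10 ± 0.23, neither of them called. Gldn, the gliomedin of the node of Ranvier, rose, with 224, 207 and 162 CPM in the cultures, against 33.6, 38.2 and 33.4 CPM in the ganglia (2.50 ± 0.14).

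Of 19 tested genes of repair and immature Schwann cells, 9 were higher and none lower. Gdnf, a survival factor for sensory and motor neurons, had 23.6, 25.4 and 19.5 CPM in the cultures, against 0.124, 0.164 and 0.261 CPM in the ganglia (6.89 ± 0.24, edgeR adjusted p = 5.39e-08). Tenascin C (Tnc), a matrix protein of injured nerve, had 183, 178 and 174 CPM in the cultures, against 2.48, 5.79 and 5.16 CPM in the ganglia (5.30 ± 0.23). Sox2, a factor that holds Schwann cells in an immature state, had 136, 126 and 121.5 CPM in the cultures, against 10.9, 12.2 and 13.2 CPM in the ganglia (3.40 ± 0.11), and Sox10, which glia of the lineage express throughout, had 349.9, 339.5 and 291 CPM in the cultures, against 78.7, 75 and 66.4 CPM in the ganglia (2.15 ± 0.11). All 4 had culture libraries wholly above the ganglia. Betacellulin (Btc), artemin (Artn) and the filament genes Gfap and Nes rose by 5.12, 4.44, 3.79 and 3.60 on the log2 scale. The low-affinity neurotrophin receptor Ngfr was not called (−0.44 ± 0.13), nor were Shh (−1.84) and Erbb3 (1.99), and Olig1 had 21 counts in the cultures and 0 in the ganglia and was not tested.

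Satellite glial genes had 4 of 17 lower and none higher, against 9.56% lower and 7.54% higher over all genes. Ptgds, prostaglandin D2 synthase, which meningeal and perineural fibroblasts also make, had 0.889, 0.988 and 1.24 CPM in the cultures, against 490.1, 321 and 277 CPM in the ganglia (−8.42 ± 0.29). Fabp7, a fatty acid binding protein of satellite glia, had 46, 43.7 and 53.4 CPM in the cultures, against 231, 202 and 268 CPM in the ganglia (−2.29 ± 0.13). Both were lower in all 3 cultures. Kcnj10 (1.37), Glul (−0.83), Gja1 (1.29) and Cdh19 (1.78) were not called and differed in sign. Among neurotrophic factors and receptors 6 of 25 tested genes were higher and 2 lower, the latter near the 9.56% over all genes. Besides Gdnf and Artn these included Lif, with 21.7, 21.9 and 24.1 CPM in the cultures, against 0.931, 0.546 and 1.04 CPM in the ganglia (4.74 ± 0.20). Neurotrophin 3 (Ntf3) had 1 count in the cultures and 54 in the ganglia, 63-fold lower (95% counting interval 10.8 to 2536).

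**Figure D3:**
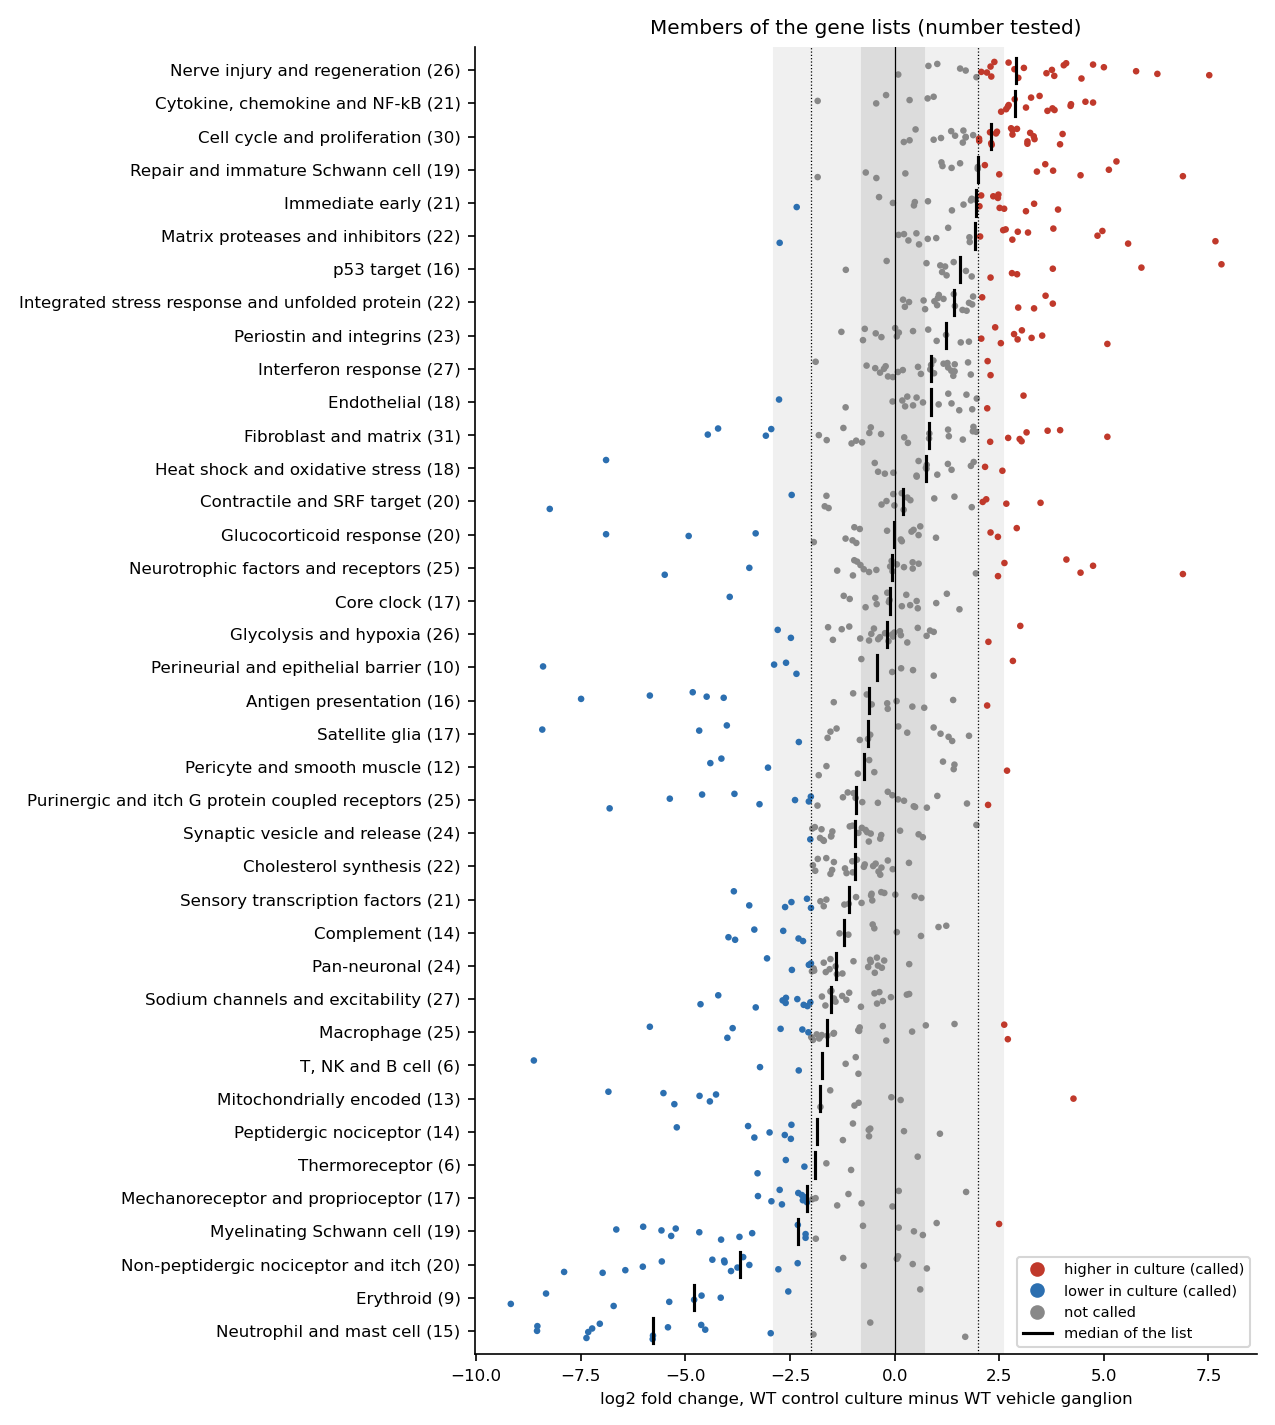
Log2 fold change, WT control culture minus WT vehicle ganglion, of every tested member of the lists with at least 6 tested members, ordered by the list median (black bar). Red points were called higher, blue points lower and grey points neither. Dotted lines mark 4-fold, and grey bands hold the central 50% and 90% of all genes tested. The nerve injury list stands at the top and the neutrophil and mast cell list at the bottom.

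Matrix genes moved in both directions, with 8 of 31 higher and 4 lower, against 7.54% and 9.56% over all genes. Periostin (Postn), the protein the study is about, had 911.5, 853 and 662 CPM in the cultures, against 22, 27.4 and 22.2 CPM in the ganglia (5.08 ± 0.17, edgeR adjusted p = 4.28e-08). Its mean was 809 ± 130.4 CPM in cultures and 23.9 ± 3.07 CPM in ganglia (SD, n = 3 each). Thrombospondin 2 (Thbs2), which binds matrix proteases, had 138, 129.6 and 126 CPM in the cultures, against 6.64, 9.61 and 9.07 CPM in the ganglia (3.95 ± 0.14), and collagen V chain Col5a2 had 645, 617 and 566 CPM in the cultures, against 65.8, 85.7 and 71.6 CPM in the ganglia (3.03 ± 0.12). Every culture lay above every ganglion for these genes. Fibronectin (Fn1) and the crosslinking enzyme Loxl1 rose by 2.71 and 3.15.

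Among the small leucine-rich proteoglycans of connective tissue in the list, Ogn and Dcn were lower and Lum was not called (−1.81 ± 0.12). Osteoglycin (Ogn) had 21.7, 20.1 and 18.8 CPM in the cultures, against 506, 445 and 390.4 CPM in the ganglia (−4.47 ± 0.13), and decorin (Dcn) had 91.9, 89.3 and 86.7 CPM in the cultures, against 755, 847 and 663 CPM in the ganglia (−3.08 ± 0.12). Pi16, a marker of adventitial fibroblasts, and the microfibril gene Mfap5 fell, at −4.22 and −2.95. The fibrillar collagens Col1a1 (−1.03), Col1a2 (0.32) and Col3a1 (−0.78), and the receptors Pdgfra (−0.33) and Pdgfrb (0.83), were not called.

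Proteases that cut the matrix, and their inhibitors, were higher in 11 of 22 tested cases and lower in 1. Mmp12, the elastase of macrophages, had 37.1, 33.9 and 46.5 CPM in the cultures, against 0.186, 0.218 and 0.156 CPM in the ganglia (7.67 ± 0.24), and Mmp3, stromelysin, rose by 5.58 on the log2 scale. The inhibitor Timp1 had 142, 125 and 116 CPM in the cultures, against 5.28, 4.31 and 3.75 CPM in the ganglia (4.85 ± 0.15), the membrane-type protease Mmp14 had 180.1, 187 and 179 CPM in the cultures, against 22.4, 28.1 and 27.2 CPM in the ganglia (2.81 ± 0.11) and tissue plasminogen activator (Plat) had 256, 261 and 228 CPM in the cultures, against 24.2, 29.7 and 27.8 CPM in the ganglia (3.19 ± 0.11). The urokinase receptor Plaur rose by 2.94. Neither Timp2 (0.09) nor Mmp2 (0.58) was called, and Mmp9, the gelatinase of neutrophils, was lower, with 0.157, 0.884 and 0.494 CPM in the cultures, against 2.92, 4.26 and 3.23 CPM in the ganglia (−2.75 ± 0.41).

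Periostin signals through integrins, and a list of Postn itself, integrin subunits, periostin receptors or not, and related genes had 9 of 23 higher and none lower. The 9 were Postn, Tgfb1, Bmp1 and the integrin subunits Itga1, Itga2, Itga5, Itga7, Itgav and Itgb8. The fibronectin receptor subunit Itga5 had 95, 101 and 104.5 CPM in the cultures, against 10.6, 8.51 and 7.09 CPM in the ganglia (3.52 ± 0.14), and the laminin receptor subunit Itga7, which regrowing neurons are known to make, had 1368, 1299 and 1314 CPM in the cultures, against 170.2, 181 and 200.0 CPM in the ganglia (2.85 ± 0.10). The culture libraries of both were wholly above the ganglia. Itgav and Itgb8 rose by 2.54 and 2.94, whereas Itgb3 (1.77) and Itgb5 (1.00), the usual partners of Itgav in binding periostin, were not called. Tgfb1, which induces periostin in many cells, had 46.1, 49.1 and 40.5 CPM in the cultures, against 6.02, 4.97 and 5.52 CPM in the ganglia (3.04 ± 0.13), and the periostin paralogue Tgfbi was at 0.01 ± 0.13.

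Contractile and serum response factor targets had 4 of 20 higher and 2 lower, against 7.54% higher and 9.56% lower over all genes. Ccn1, a secreted matricellular protein, had 168.5, 164 and 177 CPM in the cultures, against 13.2, 13.2 and 19.1 CPM in the ganglia (3.49 ± 0.15), and filamin A (Flna) had 737, 737 and 708 CPM in the cultures, against 149, 169 and 161 CPM in the ganglia (2.19 ± 0.09). Smooth muscle actin (Acta2) was at 0.21 ± 0.13. The 2 that fell, Tagln and Smtn, are both among the genes with opposite-strand overlap or shared sequence. Perineurial and barrier genes had 4 of 10 tested lower, including claudin 1 (Cldn1) at −2.35 ± 0.17, and 1 higher, desmoplakin (Dsp), at 2.83 ± 0.53. Vimentin (Vim), the filament of mesenchymal and glial cells, was chosen as the most abundant gene called higher and had 3484, 3481 and 3110.0 CPM in the cultures, against 852, 598 and 569 CPM in the ganglia (2.32 ± 0.16).

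Of 18 endothelial genes Kdr and Eng, receptors for vascular endothelial growth factor and for TGF-beta family ligands, were higher and Ly6c1, 19.0% of whose 75-base words are shared, was lower. Over all genes 7.54% were higher and 9.56% lower. Of the 18, 15 had a log2 above 0, and the list summed to 542 to 595 CPM in the cultures and 254 to 295 CPM in the ganglia. Kdr had 51, 53.3 and 49.9 CPM in the cultures, against 8.07, 11.4 and 13.7 CPM in the ganglia (2.21 ± 0.17) and Eng had 109.6, 118 and 117 CPM in the cultures, against 13.4, 13.1 and 14.2 CPM in the ganglia (3.08 ± 0.09). Pecam1 (1.54), Cdh5 (1.85) and Flt1 (0.25) were not called. Pericyte genes had 3 of 12 lower, among them Higd1b (−3.03 ± 0.41), and 1 higher, Cspg4 (2.69 ± 0.09).

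Genes of blood cells were lower in most tested cases of 2 lists. Of 9 erythroid genes 8 were lower, with a median of −4.79, or −3.58 over the 4 without overlap or shared sequence. Alpha globin Hba-a1 had 0.418, 0.624 and 0.742 CPM in the cultures, against 22, 27.8 and 26.9 CPM in the ganglia (−5.39 ± 0.20), and its copies share sequence, so their split is uncertain. Of 15 tested neutrophil and mast cell genes 12 were lower, with a median of −5.78, or −5.42 with the 2 genes at 0 in culture set to their bounds. S100a9, a calcium-binding protein of neutrophils, had 0.0523, 0.52 and 0.0824 CPM in the cultures, against 29.7, 38.9 and 37.7 CPM in the ganglia (−7.37 ± 0.37), and lactoferrin (Ltf) had 0.0523, 0.052 and 0.0824 CPM in the cultures, against 7.01, 12.6 and 12 CPM in the ganglia (−7.23 ± 0.41). Both were near 0 in every culture. Ngp had 3 counts in the cultures and 1112 in the ganglia, 433-fold lower (95% counting interval 148 to 2102). Of 19 lymphocyte genes only 6 could be tested, and Igkc, Cd79a and Cd79b were lower.

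Of 25 macrophage genes 6 were lower and 2 higher, the latter near the 7.54% over all genes. The median was −1.61, with 20 genes below 0 and 5 above. Csf1r (−1.95) and Mrc1 (−1.995) were among those below 0 but not called. The list summed to 396 to 414 CPM in the cultures and 341 to 413 CPM in the ganglia. In the cultures its largest members were Lyz2 and Gpnmb, with 7310 and 6144 counts. Cd74, the chaperone of class II antigen presentation, had 0.837, 0.624 and 0.371 CPM in the cultures, against 43.8, 29 and 31.4 CPM in the ganglia (−5.85 ± 0.27, edgeR adjusted p = 1.80e-07). Cx3cr1, the fractalkine receptor of resident macrophages, had 0.627, 0.52 and 0.206 CPM in the cultures, against 5.77, 8.13 and 7.24 CPM in the ganglia (−4.00 ± 0.32), and the scavenger receptor Cd163 had 0.994, 0.78 and 0.948 CPM in the cultures, against 13, 13.6 and 13.6 CPM in the ganglia (−3.87 ± 0.16). The lysosomal genes Cd68 and Gpnmb rose, with Cd68 at 37.7, 39.6 and 42 CPM in the cultures, against 7.63, 5.4 and 5.37 CPM in the ganglia (2.70 ± 0.15) and Gpnmb at 2.62 ± 0.11. The macrophage antigen Adgre1 (−0.20 ± 0.19) and lysozyme Lyz2 (0.42) were not called, and the complement genes C1qa, C1qb and C1qc lay between −1.77 and −1.61.

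Of the class II pathway genes in the antigen presentation list, H2-Aa, H2-Ab1, H2-Eb1 and H2-DMb1 fell with Cd74, while H2-DMa (−0.99) and the class II regulator Ciita (−0.67) were not called. Of those that fell, H2-DMb1 is among the genes with opposite-strand overlap or shared sequence. H2-Aa had 0.314, 0.26 and 0 CPM in the cultures, against 41, 29.6 and 28.6 CPM in the ganglia (−7.50 ± 0.40) and H2-Ab1 had 0.941, 0.572 and 1.32 CPM in the cultures, against 19.1, 14.6 and 15.9 CPM in the ganglia (−4.09 ± 0.24). The class I genes B2m (0.42), H2-K1 (−0.17) and H2-D1 (0.71) were not called, and the peptide transporter Tap1 rose, at 2.21 ± 0.11. In the complement list 6 of 14 tested genes were lower and none higher. C3 had 0.837, 1.35 and 1.28 CPM in the cultures, against 22.4, 14.9 and 17.8 CPM in the ganglia (−3.97 ± 0.23) and the regulator Cd55 had 62.5, 61.7 and 59.5 CPM in the cultures, against 583, 665 and 633 CPM in the ganglia (−3.35 ± 0.10). Only 3 of 9 complement genes without overlap or shared sequence were lower.

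Cytokines and chemokines had 15 of 21 tested genes higher and none lower, with a median of 2.87. Interleukin 11 (Il11) had 10.9, 7.75 and 10.8 CPM in the cultures, against 0.497, 0.6 and 0.469 CPM in the ganglia (4.21 ± 0.24), and Icam1, the adhesion molecule that endothelium and fibroblasts induce, had 34.9, 37.9 and 35.9 CPM in the cultures, against 4.16, 3.82 and 3.39 CPM in the ganglia (3.26 ± 0.12). Interleukin 6 (Il6), Cxcl1 and prostaglandin synthase 2 (Ptgs2) rose by 2.72, 3.82 and 4.56 on the log2 scale. The NF-kB subunit Nfkb2 had 50.3, 53 and 44.2 CPM in the cultures, against 8.01, 6.5 and 5.73 CPM in the ganglia (2.87 ± 0.14), while the NF-kB feedback inhibitors Nfkbia (0.36) and Tnfaip3 (0.79) were not called. Il1b and Tnf had too few counts to test, 29 each in the cultures and 13 and 2 in the ganglia. Interferon response genes had 2 of 27 higher, Isg15 (2.29 ± 0.22) and Zbp1 (2.22 ± 0.24), a share near the 7.54% over all genes.

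Cell cycle genes were higher in 18 of 30 cases and lower in none. Mki67, the proliferation antigen, had 30.3, 29.5 and 26.4 CPM in the cultures, against 3.48, 6.88 and 6.78 CPM in the ganglia (2.32 ± 0.21). Rrm2, which makes deoxynucleotides for DNA synthesis, had 35.9, 33.3 and 29.4 CPM in the cultures, against 1.61, 2.67 and 1.77 CPM in the ganglia (4.01 ± 0.18), and cyclin D1 (Ccnd1) had 229.5, 220.1 and 227 CPM in the cultures, against 25.8, 34.3 and 29 CPM in the ganglia (2.92 ± 0.12). The replication helicase gene Mcm3 had 34.2, 36.2 and 34.6 CPM in the cultures, against 3.29, 4.26 and 3.54 CPM in the ganglia (3.24 ± 0.13). All 4 were higher in every culture than in any ganglion. Pcna (1.35), Ccna2 (1.63) and E2f1 (0.50) were not called. Which cells carried the cell cycle RNA was not tested.

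Metabolic and stress lists were set against the 7.54% higher and 9.56% lower over all genes. None of 22 cholesterol synthesis genes was called, at a median of −0.95. Of these 22, 21 had a log2 below 0, and at an unadjusted edgeR p under 0.05, whatever the fold, 18 were below 0 and 1 above. The shares given above are for 4-fold calls and are no background for these counts. Over all 17065 genes, 8566 had a log2 below 0. At an adjusted edgeR p below 0.05, whatever the fold, 6149 of all genes were lower and 6163 higher. The glycolysis and hypoxia list had 2 of 26 higher, the hexokinase Hk2 (2.24 ± 0.13) and adrenomedullin Adm (3.00 ± 0.16), and 2 lower, Bnip3 (−2.80 ± 0.10, 22.3% of its exon bases under the opposite strand) and Aldoc (−2.48 ± 0.10), and Gapdh stood at −0.04. Heme oxygenase 1 (Hmox1) and Txnrd1, both induced by oxidants, rose by 2.57 and 2.16 (Txnrd1 1.99 and not called without ganglion replicate 1), while the heat shock genes Hspa1a (0.53) and Hspa8 (−0.40) were not called. Of 20 glucocorticoid-responsive genes 3 were higher and 3 lower, and Fkbp5 (−0.92) and Sgk1 (0.15) were not called. In the clock list only Hlf fell (−3.94 ± 0.21). Adipocyte genes had 3 of 10 tested and none called, and at an unadjusted edgeR p under 0.05 1 was below 0 and 1 above.

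The named genes with the largest rises included several outside the lists. The cytokine Clcf1, which acts on the CNTF receptor, had 89.3, 96.1 and 89.9 CPM in the cultures, against 2.3, 1.97 and 2.08 CPM in the ganglia (5.44 ± 0.12). Insulin-like growth factor binding protein 3 (Igfbp3) had 793, 794 and 818 CPM in the cultures, against 17.9, 22.3 and 18.9 CPM in the ganglia (5.35 ± 0.12), and the architectural chromatin factor Hmga2 had 45.6, 46.3 and 43.1 CPM in the cultures, against 0.31, 0.328 and 0.417 CPM in the ganglia (6.96 ± 0.16). In all 3 the lowest culture was far above the highest ganglion. E-selectin (Sele), of activated endothelium, rose to 9.99, 13.3 and 10.2 CPM in the cultures, against 0.0621, 0.218 and 0.0521 CPM in the ganglia. Cyp1a1, the enzyme induced through the aryl hydrocarbon receptor, had 21.3, 20.9 and 23 CPM in the cultures, against 0.186, 0.109 and 0.313 CPM in the ganglia (6.69 ± 0.23). The lactate transporter gene Slc16a8 had 1504 counts in the cultures and 3 in the ganglia, 429-fold higher (95% counting interval 147 to 2085).

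Many of the steepest falls were of genes whose exons lie under exons of a gene on the opposite strand. In the GENCODE M21 annotation, 31 tested genes had 90 to 100% of their exon bases so covered, and 29 of them (93.5%) were called lower, with a median log2 of −7.98. With 50 to 90% covered, 56.9% of 153 genes were lower, with 25 to 50% covered 22.5% of 570, and with 10 to 25% covered 10.4% of 1188. With no overlap, 8.74% of 11928 genes were lower and the median was 0.06. Examples were Pdcd2, all of whose exon bases are covered and most of them by Tbp, with 0, 0 and 0 CPM in the cultures, against 28.9, 14.8 and 16.2 CPM in the ganglia, at least 408-fold lower against a floor of 3 counts. The integrin-linked kinase Ilk, 89.7% covered, had 0.0523, 0.052 and 0.124 CPM in the cultures, against 206.5, 162 and 166 CPM in the ganglia (−11.01 ± 0.23), and the RNA-binding gene Slirp, 97.8% covered, had 2 counts in the cultures and 2364 in the ganglia. Smco3 (95.8%), Pus3 (88.1%), Tagln (67.9%) and the metallothionein Mt2 (73.5%) fell, at −9.02, −7.39, −8.24 and −6.90 on the log2 scale.

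Mt1, next to Mt2 and with 0% covered, had 161, 157 and 156 CPM in the cultures, against 171, 69 and 79.7 CPM in the ganglia and was not called (0.57 ± 0.29). The imprinted gene Gnas, with 22% of its exon bases covered and 17.1% of its 75-base words shared with another gene, fell by 6.45 on the log2 scale. The libraries were stranded by dUTP, per the labels, and how strand was treated in counting each table is a point not given in the sources used here. In the KO libraries the same order stood, with a median of −8.47 at 90 to 100% covered and 0.06 at 0%. The part of counting in these falls was not tested. Among the 13761 genes with under 10% overlap and under 10% of shared 75-base words, 1052 were higher (7.64%) and 1122 lower (8.15%). Among the other 3304, 15.4% were lower.

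**Figure D4:**
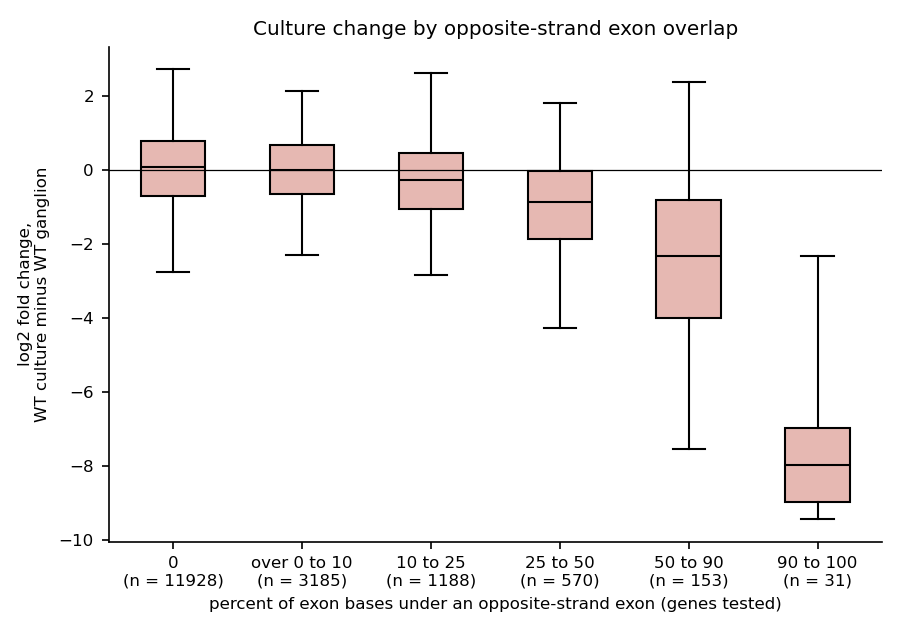
Log2 fold change, WT control culture minus WT vehicle ganglion, of all annotated genes tested, by the percent of exon bases under an exon of the opposite strand. Boxes hold the middle 50% of genes, the line is the median and whiskers reach the 5th and 95th percentiles. The median falls with the overlap to −7.98 in the last bin.

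Mitochondrially encoded genes are counted from a compact genome with copies in nuclear DNA. Of 13, 6 were lower, 1 was higher and 6 were not called. The cytochrome oxidase subunit gene mt-Co3 had 2.14, 2.13 and 1.65 CPM in the cultures, against 44.1, 40.4 and 29.4 CPM in the ganglia (−4.27 ± 0.20), whereas mt-Co1 was level, at 12170.0, 11040.0 and 11590.0 CPM in the cultures and 11140.0, 12910.0 and 12720.0 CPM in the ganglia (−0.08 ± 0.09). The subunits mt-Co2, mt-Atp6 and mt-Nd3 fell, at −4.66, −5.53 and −5.27 on the log2 scale. mt-Nd6, the coding gene of the light strand, rose, with 764, 572 and 726 CPM in the cultures, against 53.7, 27.9 and 25.2 CPM in the ganglia (4.27 ± 0.29). Of the 6 mitochondrial genes without overlap or shared sequence 1 was lower and 1 higher.

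The same contrast in the libraries labelled KO, which share no library with the WT ones, gave 1392 genes higher (8.1%) and 1693 lower (9.85%) of 17184. Of the 1286 genes higher in WT cultures 1180 were tested there. All 1180 had the same direction and 1073 were called. Of the 1631 lower genes 1547 were tested, 1546 had the same direction and 1360 were called. The exception was Aspg, at −2.25 ± 0.62 in WT and 0.30 ± 0.56 in KO. Over all genes tested in both, 92.2% had the same direction. KO cultures and ganglia also came in separate count tables, so tissue and table cannot be told apart here either. The injury list had a median of 2.77 in KO, the non-peptidergic list −3.40 and the peptidergic list −1.89.

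Postn was lower in KO than in WT libraries of either kind and higher in culture in both. In the fit over all 12 libraries it had 923, 870 and 672 CPM in WT cultures, against 21.6, 27.8 and 22.5 CPM in WT ganglia. In KO libraries it had 104, 101 and 384 CPM in cultures, against 3.99, 3.58 and 5.3 CPM in ganglia. KO culture 3 was above the other two, and no KO library reached the WT libraries of its own kind. The change was 5.08 ± 0.17 in WT and 5.47 ± 0.58 in KO, a difference of −0.42 ± 0.60 (edgeR interaction, adjusted p = 0.949).

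The difference between the WT and the KO change was tested for 18162 genes. With a log2 of at least 1 and an adjusted p below 0.05, 12 were called (0.0661%), and 1390 had an unadjusted p under 0.05. DESeq2 called 39, and without a filter on low counts edgeR called 76. Of the 12, 9 had the higher change in WT, and 6 of those are mitochondrially encoded. mt-Nd1 had a log2 of −1.77 in WT and −3.28 in KO, and mt-Nd5 one of 0.14 in WT and −1.48 in KO. Since the WT and the KO cultures came in separate tables, genotype and table cannot be told apart in this difference.

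**Figure D5:**
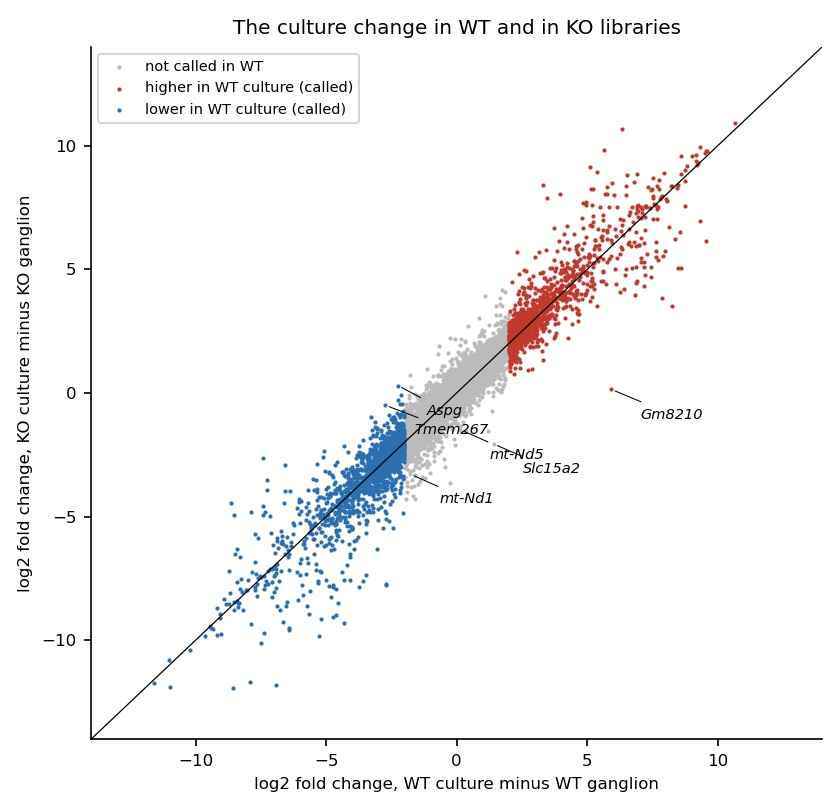
Log2 fold change of culture minus ganglion in the WT libraries (horizontal) and in the KO libraries (vertical), 1 point per gene tested in both, with the line of equal change. Red and blue points were called in WT. Gm8210, Slc15a2, Tmem267, mt-Nd1 and mt-Nd5 were called in the test of the difference, and Aspg had opposite signs.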

How the data were processed

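Sequencing counts came from dorsal root ganglia and from cultured ganglion neurons of mice. Poly-A selection and dUTP strand marking were used, per the labels' protocols. The authors deposited whole-number read counts per Ensembl identifier, not normalized, in 1 table for the ganglia and 1 for each genotype of culture. Per the submitters' processing notes HISAT2 2.1.0, Bowtie2 2.2.3, TopHat2 and GRCm39 were used. The counter, its treatment of strand and its annotation: not given in the sources used here.

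Tables were joined on the Ensembl identifier, and symbols came from GENCODE M21. After filterByExpr and TMM scaling, the robust quasi-likelihood test of edgeR 4.0.16 was run in R 4.3.3, two-sided, with Benjamini-Hochberg adjustment. SE was taken as the absolute log2 fold change divided by the root of F. DESeq2 1.42.0 was an alternative, and the closing section gives the effect of this and the other alternatives. Opposite-strand exon overlap and shared 75-base words were computed from GENCODE M21, which is on another build, so no coordinates of the files are printed. The test was checked on simulated data. Scripts in Python 3.11.15 counted calls over 40 gene lists, with no list test.

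A fold with 0 counts in a group used a floor of 3 counts over the group. Such floors, and the counting intervals, cover counting error only, since without molecular identifiers PCR copies of a molecule count separately.

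The members and lists were chosen with earlier results of these data known. The rule for named genes took Postn and, among called genes with at least 10 CPM in either group, no overlap between the libraries and no placeholder symbol, the 15 largest rises and the 15 largest falls. From each list it took up to 4 called members with the smallest p and up to 2 of the other direction. Not every gene the rule names is reported here, and other genes named were chosen after their values were seen. Samples were not treated as paired by replicate number, and the check described in the closing section does not settle pairing.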

Additional observations from a re-analysis of the deposited data

Results flagged for a closer look

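The change from ganglion to culture differed between WT and KO for 12 genes, each by the edgeR interaction test over 12 libraries (adjusted p below 0.05, log2 of at least 1). Genotype and table coincide in the cultures and cannot be told apart. Values are the WT change minus the KO change on the log2 scale ± SE.

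A set of 6 mitochondrially encoded protein and RNA genes had the higher change in WT. The difference was 1.60 ± 0.15 for mt-Nd5 (adjusted p = 0.00144), 1.49 ± 0.23 for mt-Nd4, 1.48 ± 0.19 for mt-Nd1, 1.23 ± 0.20 for mt-Nd2, 1.12 ± 0.17 for mt-Cytb and 1.72 ± 0.18 for the ribosomal RNA mt-Rnr2. mt-Nd5 had 3880, 3520 and 3780 CPM in WT cultures, against 3170, 3480 and 3370 CPM in WT ganglia, and 1200, 983 and 1130 CPM in KO cultures, against 2640, 3050 and 3280 CPM in KO ganglia. The KO cultures were the low libraries, while the ganglia of both genotypes lay close together.

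Of the other genes, the peptide transporter Slc15a2 differed by 3.46 ± 0.37, with 7.40 to 11.7 CPM in WT cultures, against 3.06 to 4.46 CPM in WT ganglia, and 4.32 to 4.97 CPM in KO cultures, against 13.9 to 26.7 CPM in KO ganglia. The predicted gene Gm8210 differed by 5.75 ± 0.62, and its WT ganglia held 0.0553 to 0.122 CPM, against 1.62 to 3.74 CPM in KO ganglia. The interferon-induced gene Ifit3b differed by 1.43 ± 0.22. Lower in WT were Pdk4, an inhibitor of pyruvate dehydrogenase, at −1.36 ± 0.20, the collagen crosslinker Lox at −1.56 ± 0.25 and Tmem267 at −2.27 ± 0.30. For Pdk4, Lox and Tmem267 the WT ganglia were above the KO ganglia in every library.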

How the results depend on the processing

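The WT counts of 1286 genes higher and 1631 lower moved past 1.5 times with no filter on low counts (2717 higher, 2766 lower), with a test against a log2 of 2 by glmTreat (833 and 1033), with a log2 limit of 1 (3054 and 3514) and with a log2 limit of 3 (645 and 788). These follow from the genes tested or from the limit itself. Without a filter the KO contrast called 5136 genes, against 3085 with it, and the WT minus KO difference 76, against 12. DESeq2 called 39 in that difference, and the cause was not tested. Leaving out 1 library gave 1362 to 1531 higher and 1691 to 1832 lower. Samples were not treated as paired by replicate number. Residuals of culture and ganglion of the same number correlated at 0.103, −0.046 and 0.165 across genes, which are not independent replicates. Those of unlike number correlated at −0.133 to 0.075. The first and last values of the same number were above the limit of 0.1 set for the check, so it does not settle pairing. The replicate block gave 1299 higher and 1623 lower. Of 165 named genes, none reversed, 104 kept their call in every alternative and 158 in all but the stricter fold tests. Scaled by total counts alone, 5 of the 165 lost their call, Isl1 and Elavl4 among them. The median of all genes shifted to 0.125 with total counts alone and to 0.132 without a filter. List medians changed sign for the clock, glucocorticoid and neurotrophic lists. Depth limits genes of few counts, 61 of the lower genes having 0 in culture and 99 of the higher genes 0 in the ganglia.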

Other observations

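Further genes were picked from the most abundant called ones after their values were seen, so their direction speaks for no wider group. Of genes of the basement membrane, collagen IV chain Col4a1 had 1339, 1318 and 1122 CPM in the cultures, against 168, 191 and 184 CPM in the ganglia (2.80 ± 0.11), nidogen (Nid1) had 811, 765 and 671 CPM in the cultures, against 92.7, 138 and 114 CPM in the ganglia (2.70 ± 0.15) and fibulin 2 (Fbln2) had 864, 793 and 786 CPM in the cultures, against 87.2, 93.4 and 102 CPM in the ganglia (3.11 ± 0.10). Every culture was above every ganglion for the 3 genes. Dystroglycan (Dag1), the receptor that ties Schwann cells to the basement membrane, had 911, 879 and 733 CPM in the cultures, against 154, 196 and 195 CPM in the ganglia (2.21 ± 0.13).

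Of neuronal genes outside the lists, picked in the same way, gamma-synuclein (Sncg) had 483, 448 and 441 CPM in the cultures, against 3762, 1931 and 2049 CPM in the ganglia (−2.50 ± 0.24), the sodium pump regulator Fxyd2 had 83.3, 74.8 and 72 CPM in the cultures, against 1470.0, 815.5 and 860.2 CPM in the ganglia (−3.77 ± 0.23) and Pirt, a membrane protein that regulates Trpv1, had 271, 262 and 290.2 CPM in the cultures, against 1143, 1179 and 1224 CPM in the ganglia (−2.11 ± 0.09). No culture reached the lowest ganglion. Map1b, a neuronal microtubule protein gene of high level, was not called (−1.38 ± 0.13). Apolipoprotein D (Apod), which Schwann cells and nerve fibroblasts make, had 43.5, 44.2 and 34.6 CPM in the cultures, against 3192, 2050.0 and 1733 CPM in the ganglia (−5.83 ± 0.26).

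Called genes whose libraries overlapped between the groups numbered 6, all of skeletal muscle: Mylpf, Ckm, Myl1, Atp2a1, Myh4 and Acta1. Creatine kinase Ckm had 0, 1.14 and 0.0824 CPM in the cultures, against 27.7, 0.819 and 15.7 CPM in the ganglia, so that ganglion replicate 2 lay below culture replicate 2.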
